A study of Rattus norvegicus with 14 samples.

Results

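Peripheral blood mononuclear cells of arthritic rats that had received mechanical stimulation with methotrexate (MTXMS_A, 3 arrays) were compared with those of arthritic rats that had received mechanical stimulation alone (MS_A, 3 arrays), both at day 34 of therapy. These 6 arrays were chosen by their titles out of the 14 of the series. All rats were female Wistar rats, and arthritis had been induced with bovine type II collagen in Freund's adjuvant. Stimulation was the insertion and twirling of a thin needle on the lower back and below the knee, named acupuncture in the labels, and methotrexate was injected weekly into the peritoneum. The other 8 arrays are of healthy rats before therapy (NOCIA_B, 3), arthritic rats before therapy (CIA_B, 2) and healthy rats at day 34 of stimulation (NOCIAMS_A, 3), and enter the estimate of spread. Neither methotrexate without stimulation nor a saline injection on top of stimulation is among the 14 arrays, so that the drug and its injection cannot be told apart, nor can the effect of the drug alone be given. The comparison asks what changes in the blood cells when the standard drug is added to the needle. The age of the rats is not given in the sources used here.

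Methotrexate is a folate analog that enters cells by the reduced folate carrier and is retained there by the addition of glutamate residues. Its polyglutamates inhibit thymidylate synthase and the folate-dependent steps of purine synthesis, which slows nucleotide supply and raises extracellular adenosine, a dampener of leukocyte activity. Mononuclear cells separated on a Ficoll gradient are lymphocytes and monocytes, with platelets and a remainder of granulocytes and red cell precursors.

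The 6 arrays carried the markers of the labelled cells. On the log2 scale of the MAS5 signal, a probe set intensity scaled to the same trimmed mean on each array, the T cell receptor chain Cd3e lay between 11.88 and 12.32, the B cell marker Ms4a1 between 10.38 and 12.35 and the monocyte marker Cd14 between 10.03 and 13.17, against array medians between 6.70 and 7.22. MTXMS_A replicate 3 stood apart: its log2 signals correlated with those of the other arrays at a mean of 0.882, against 0.912 to 0.931 for the other 5 arrays of the comparison, and the ratio of 3' to 5' actin signal, a sign of RNA degradation or incomplete labelling, was 5.01 against 2.44 to 3.15. In NOCIAMS_A this ratio reached 4.36, and the same ratio for Gapdh did not set the array apart (1.12 against 1.00394 to 1.18). Its erythroid and mast cell markers were also far from those of the others (given below), and their part in the results was not tested. NOCIA_B replicate 3 had the lowest correlation of the 14, 0.855. Values that move by over 1.5 times without MTXMS_A replicate 3 are given both ways for the genes that the results turn on, though not for every gene named. In mixed cells, fewer cells of a type and less RNA per cell cannot be told apart.

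Probe sets brighter than the median of their array in 2 or more of the 14 samples were tested, 18515 in all. No probe set differed between MTXMS_A and MS_A at an adjusted p of 0.05 (limma, Benjamini-Hochberg), the lowest adjusted p being 0.0604. At an unadjusted p of 0.05, 1309 were higher with methotrexate (7.07% of those tested) and 1437 were lower (7.76%). At the thresholds of the study, an unadjusted p of 0.05 and a fold above 2, 398 were higher (2.15%) and 435 were lower (2.35%), together 833 (4.5%). Without MTXMS_A replicate 3 these counts were 336 and 594. The 3 MTXMS_A arrays lay above all 3 MS_A arrays on 2236 probe sets (12.1%) and below them on 1982 (10.7%). They lay above all 11 other arrays on 74 (0.4%) and below all 11 on 222 (1.2%). Since nothing passed the adjusted threshold, genes are described below by their values on each array, and the words higher and lower compare group means.

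**Figure D1:**
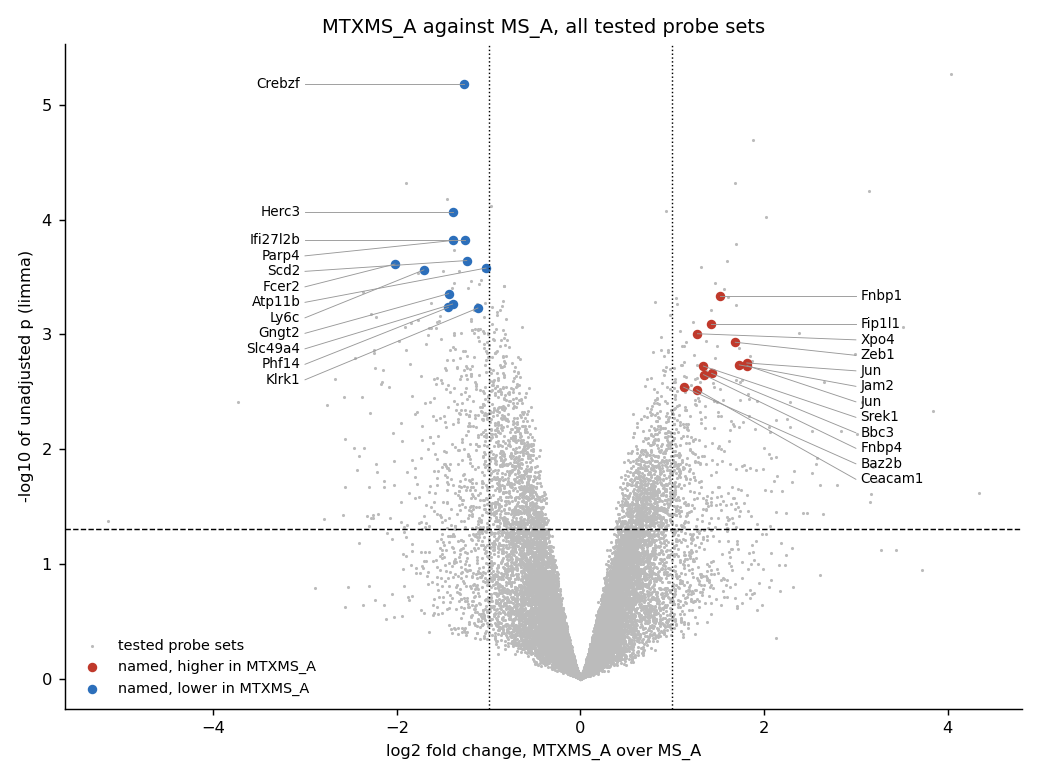
Each point is 1 of the 18515 tested probe sets, with the log2 fold change of MTXMS_A over MS_A on the horizontal axis and -log10 of the unadjusted p of limma on the vertical axis. The dashed line marks p of 0.05 and the dotted lines a fold of 2, past which 398 probe sets lie to the right and 435 to the left. Named genes are coloured.

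The probe sets of the leading genes were those past the thresholds of the study with no overlap between the groups, a signal above the 60th percentile of the higher group and the lowest p, 12 in each direction of 109 higher and 130 lower. The 12 higher stand for 11 genes. Jun, a subunit of the transcription factor AP-1, was held by 2 of the 12. On the brighter probe set its log2 signals were 9.60, 9.41 and 10.12 in MS_A and 10.39, 12.54 and 11.64 in MTXMS_A (log2 fold change 1.81 ± 0.45, SE). All 3 MTXMS_A arrays lay above all 11 others on it, and MTXMS_A replicate 1 was much closer to them than its 2 fellows. Bbc3, which encodes the pro-apoptotic protein Puma, was at 9.52, 9.52 and 9.35 in MS_A and at 11.08, 10.96 and 10.65 in MTXMS_A (1.43 ± 0.37). The arrays of each group lay close together for Bbc3, with MS_A also below the means of the other 3 groups (9.76 to 10.07). Zeb1, a zinc finger repressor known for its part in T cell development and in the epithelial-mesenchymal transition (EMT), was at 10.87, 10.66 and 10.04 in MS_A and at 12.66, 12.05 and 11.92 in MTXMS_A (1.69 ± 0.40). Fip1l1, a subunit of the complex that cuts and polyadenylates messenger RNA, was at 9.95, 9.60 and 9.71 against 11.42, 10.96 and 11.16 (1.42 ± 0.32). Xpo4, a nuclear export receptor, was at 8.57, 8.40 and 8.41 against 9.87, 9.53 and 9.80 (1.27 ± 0.29), and it and the bromodomain gene Baz2b (1.12 ± 0.30) were above all 11 other arrays in MTXMS_A. The other 6 were the splicing regulator Srek1 (1.34 ± 0.34), the formin-binding genes Fnbp1 (1.52 ± 0.32) and Fnbp4 (1.34 ± 0.34), the adhesion genes Jam2 (1.73 ± 0.43) and Ceacam1 (1.27 ± 0.34), and Jun on its dimmer probe set (1.81 ± 0.45). Their adjusted p was between 0.184 and 0.188.

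Probe sets of the same gene did not always run together. Fnbp1 has 5 tested probe sets, of which the brightest gave 0.15, Fnbp4 has 3, of which the brightest gave 0.28, and Srek1 and Jam2 have 3 each, with the lowest at -0.26 and -0.21. The 3 of Jun gave 1.16 to 1.81, those of Xpo4 0.18 to 1.27 and those of Baz2b 0.95 and 1.12.

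The 12 lower genes held several of the surface of B cells, natural killer (NK) cells and monocytes, and 8 of them lay below all 11 other arrays in MTXMS_A. Fcer2, the low-affinity IgE receptor CD23 of B cells, was at 10.38, 9.43 and 8.72 in MS_A and at 6.88, 7.66 and 7.92 in MTXMS_A (-2.02 ± 0.39). Klrk1, the activating receptor NKG2D of NK and cytotoxic T cells, was at 8.78, 9.46 and 9.15 against 8.02, 8.03 and 8.01 (-1.12 ± 0.24). Ly6c, a surface marker of inflammatory monocytes and T cell subsets, was at 12.90, 12.73 and 13.16 against 10.66, 12.02 and 10.999 (-1.71 ± 0.33). The 3 groups not compared had means of 12.23 to 12.40 for Ly6c, between those of MS_A and MTXMS_A. Ifi27l2b, an interferon-inducible gene, was nearly even across MS_A, at 13.27, 13.24 and 13.25, against 11.64, 12.12 and 12.23 in MTXMS_A (-1.26 ± 0.23). Crebzf, a bZIP transcription factor, had the lowest p of the named genes, with 10.05, 10.30 and 10.02 in MS_A and 8.79, 8.99 and 8.79 in MTXMS_A (-1.27 ± 0.16, adjusted p 0.0604). Of the 4 probe sets of Crebzf, 3 were lower and the brightest was not (0.27). The other genes were Herc3, a ubiquitin ligase (-1.39 ± 0.24), the poly(ADP-ribose) polymerase Parp4 (-1.39 ± 0.25), the fatty acid desaturase Scd2 (-1.24 ± 0.24), the phospholipid flippase subunit Atp11b (-1.03 ± 0.20), the G protein subunit Gngt2 (-1.44 ± 0.30), the chromatin reader Phf14 (-1.44 ± 0.31) and Slc49a4 (-1.39 ± 0.30).

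**Figure D2:**
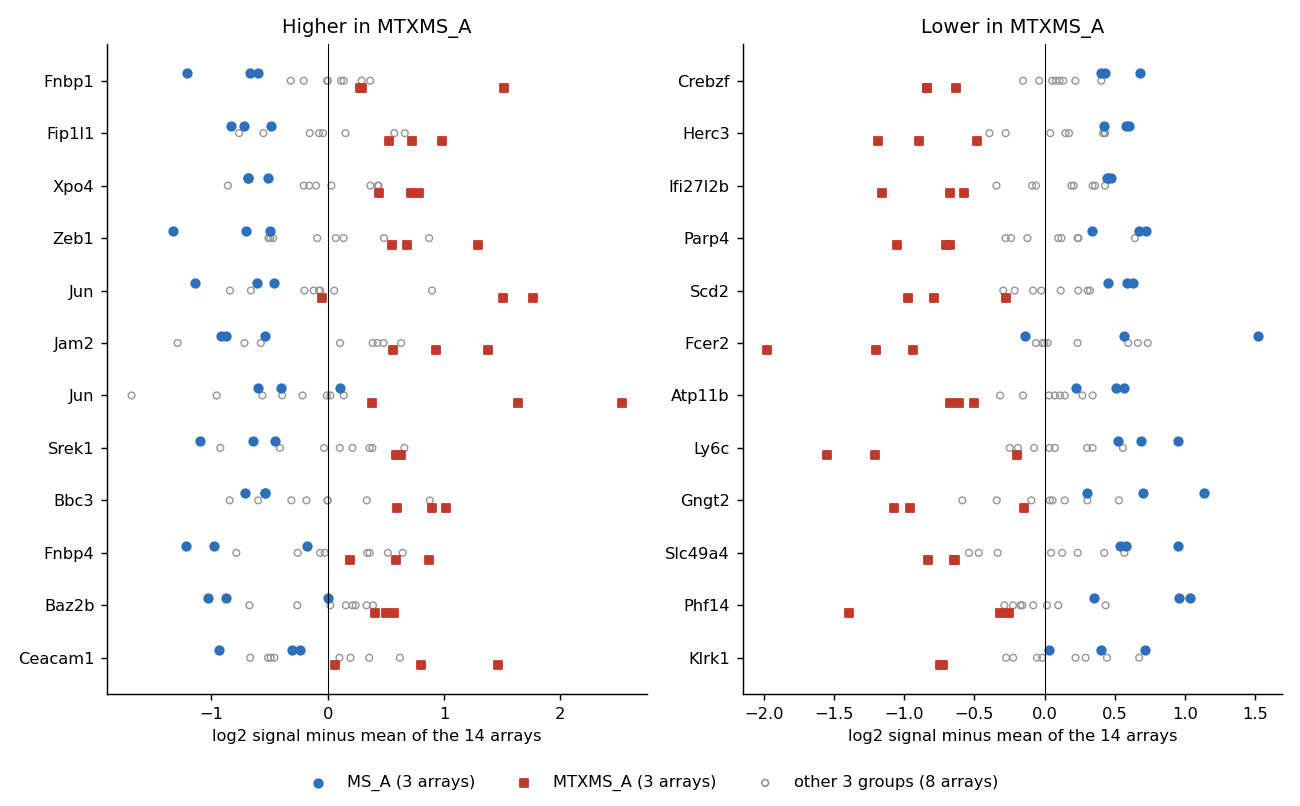
Log2 signal of the 12 leading probe sets in each direction on every array, relative to the mean of the 14 arrays (horizontal axis). MTXMS_A and MS_A do not overlap for any of them, which the choice of probe sets fixes. The 8 arrays of the other groups spread between and over both, and MTXMS_A is outside all 11 other arrays for 3 on the left and 8 on the right.

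For gene lists, 1 probe set was taken per gene, the brightest, giving 10107 genes with a median log2 fold change of -0.04, of which 46.8% were above 0 and 53.2% below. Of these, 6.23% were higher and 8.74% lower at an unadjusted p of 0.05, 1.6% were higher and 2.39% lower at the thresholds of the study, and 11.8% did not overlap in each direction, with MTXMS_A either above or below MS_A (23.6% in all). MTXMS_A lay above all 11 other arrays for 0.366% and below them for 1.34%. The lists are described by their counts against these shares and were not tested.

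The machinery of folate entry and retention held 9 tested genes of 12, of which 2 were higher and 1 was lower at an unadjusted p of 0.05. Slc19a1, the reduced folate carrier, was at 7.61, 7.70 and 7.49 in MS_A and at 7.39, 7.81 and 7.66 in MTXMS_A (0.02 ± 0.33), with full overlap. Fpgs, the synthetase that adds glutamate to folates and to methotrexate, was at 5.89, 4.33 and 3.91 against 7.22, 7.33 and 10.12 (3.51 ± 0.79). All 3 MTXMS_A arrays lay above all 11 other arrays for Fpgs, but the MS_A signals were below the array medians, where MAS5 values scatter. The highest MTXMS_A signal was that of replicate 3. All 3 MTXMS_A signals were above the array medians, so that this group alone was enough to pass Fpgs through the filter. Ggh, the hydrolase that removes those glutamates, was at 10.43, 10.44 and 11.35 against 9.27, 10.37 and 10.07 (-0.83 ± 0.36). The 2 groups of Ggh did not overlap, although the gap between the nearest arrays was small, and the difference was -0.53 without MS_A replicate 3 and -0.52 without MTXMS_A replicate 1. The folate receptor gene Folr2 was higher by 1.60 ± 0.73 and by 0.54 without MTXMS_A replicate 3.

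Of the folate cycle and thymidylate synthesis, 15 of 20 genes were tested, with 9 above 0, a median of 0.08 and 4 without overlap, 2 in each direction. Thymidylate synthase (Tyms) was below the filter. Mthfd2l, a mitochondrial enzyme of the pathway, was at 7.32, 7.53 and 6.80 in MS_A and at 8.24, 7.95 and 8.31 in MTXMS_A (0.95 ± 0.23). The serine hydroxymethyltransferases, which load one-carbon units onto folate, ran apart. Shmt1, of the cytosol, was at 10.07, 9.60 and 9.67 against 10.56, 10.08 and 10.68 (0.66 ± 0.31), and Shmt2, of mitochondria, at 9.998, 9.90 and 9.63 against 9.33, 9.37 and 9.60 (-0.41 ± 0.18). Mthfd1, the cytosolic enzyme of the same cycle, lay lower by a small step that all 3 arrays shared, 10.13, 10.09 and 10.04 against 9.86, 9.81 and 9.82 (-0.25 ± 0.17). Mthfd2 overlapped (0.58 ± 0.33, and 0.93 without MTXMS_A replicate 3).

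Purine synthesis and salvage had 16 tested genes of 22, with 7 above 0 and a median of -0.03. Ppat, which catalyses the committed step of purine synthesis, was at 8.22, 8.20 and 8.25 in MS_A and at 8.10, 7.48 and 7.53 in MTXMS_A (-0.52 ± 0.20), and was the only gene of the 16 past an unadjusted p of 0.05. Atic and Gart, the folate-dependent enzymes of the pathway, overlapped between the groups, with -0.05 ± 0.23 and 0.77 ± 0.38. Gmps, which makes GMP (0.60 ± 0.35), and the salvage enzyme Aprt (-0.14 ± 0.16) did not overlap but were above the p of 0.05. Among 17 tested genes of adenosine formation, receptors and removal, 11 were below 0 and the median was -0.08. Entpd1, the ectoenzyme CD39 that degrades extracellular ATP, was at 5.06, 6.14 and 4.58 against 7.57, 6.86 and 5.94 (1.53 ± 0.60), and Panx1, a channel that releases ATP, at 8.27, 8.64 and 8.81 against 7.57, 7.93 and 8.02 (-0.74 ± 0.33). Entpd1 overlapped by the lowest MTXMS_A array, and Panx1 was the only gene of the list without overlap. Nt5e (CD73), which makes adenosine, was at 0.28 ± 0.51, the adenosine kinase Adk at -0.63 ± 0.44 (-0.22 without MTXMS_A replicate 3), the deaminase Ada at 0.02 ± 0.31 and the receptors Adora2a and Adora2b at -0.08 ± 0.40 and -0.43 ± 0.46, none of them past a p of 0.05. Without MTXMS_A replicate 3, Nt5e was at -0.33, Ada at -0.29 and Adora2a at -0.60. Adora3 had no probe set named for it alone. In the methionine cycle and polyamine list, fed by folate, 4 of 16 tested genes did not overlap (25%), near the 23.6% of all genes. In each direction this was 12.5%, against 11.8%. The polyamine regulator Azin1 (0.62 ± 0.23) and the catabolic enzyme Sat1 (0.54 ± 0.30, and 0.34 without MTXMS_A replicate 3) were higher, and spermidine synthase Srm (-0.52 ± 0.20) and the DNA methyltransferase Dnmt1 (-0.46 ± 0.18) were lower.

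**Figure D3:**
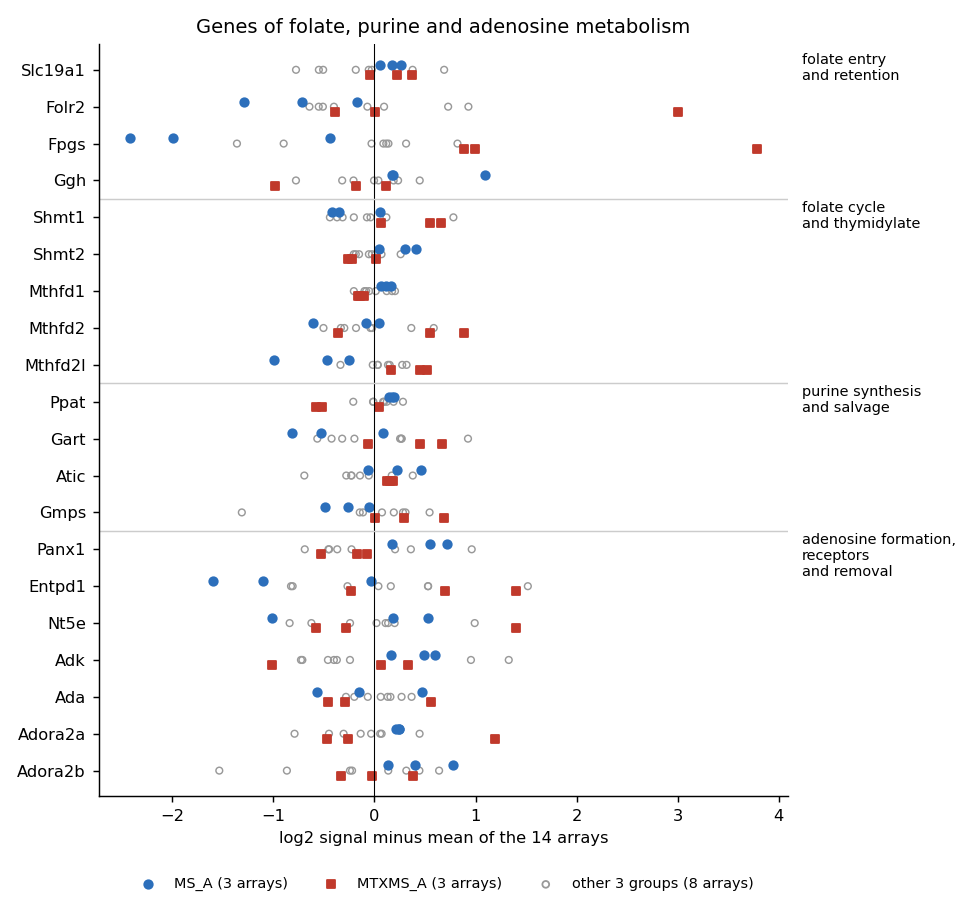
Log2 signal of 20 genes that handle folate, purines and adenosine on every array, relative to the mean of the 14 arrays (horizontal axis), with MS_A as circles, MTXMS_A as squares and the other groups as open circles. Fpgs is separated most, with MS_A signals below the array medians, while Slc19a1, Atic and Ada overlap. The MTXMS_A arrays alone were enough to pass Fpgs through the filter.

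Of the response to amino acid shortage and unfolded protein, the genes that stood apart between the groups were all higher with methotrexate. This response runs through the kinases that phosphorylate the translation factor eIF2 and the transcription factor ATF4, and its endoplasmic reticulum (ER) arm runs also through ATF6 and XBP1. Of 20 tested genes, 13 were above 0, 5 were past an unadjusted p of 0.05 and 6 did not overlap, all of these higher and none lower (median 0.25). Without MTXMS_A replicate 3, 16 of 20 were above 0, 5 were past p of 0.05 and the median was 0.32. Promoters of 3 of the genes without overlap are given below because each holds a sequence element known from this response. They span 250 bases before to 50 after the start of transcription (RefSeq, build GRCr8, 5′ to 3′ in the direction of transcription), and capitals mark the elements. They lie at chr19:10614658-10614957 on the minus strand (Herpud1), chr3:126795881-126796180 on the plus strand (Chac1) and chr3:38452766-38453065 on the plus strand (Hspa5).
Herpud1: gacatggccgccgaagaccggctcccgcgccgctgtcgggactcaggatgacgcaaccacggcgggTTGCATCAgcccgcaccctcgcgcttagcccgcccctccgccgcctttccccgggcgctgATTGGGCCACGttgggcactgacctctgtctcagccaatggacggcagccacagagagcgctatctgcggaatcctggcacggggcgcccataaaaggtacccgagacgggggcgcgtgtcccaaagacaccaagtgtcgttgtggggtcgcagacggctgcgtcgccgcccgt
Chac1: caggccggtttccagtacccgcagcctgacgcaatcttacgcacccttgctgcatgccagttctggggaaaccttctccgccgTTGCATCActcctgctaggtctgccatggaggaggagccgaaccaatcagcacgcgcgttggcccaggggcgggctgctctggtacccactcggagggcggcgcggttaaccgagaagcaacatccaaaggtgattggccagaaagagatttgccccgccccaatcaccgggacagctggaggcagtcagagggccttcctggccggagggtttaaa
Hspa5: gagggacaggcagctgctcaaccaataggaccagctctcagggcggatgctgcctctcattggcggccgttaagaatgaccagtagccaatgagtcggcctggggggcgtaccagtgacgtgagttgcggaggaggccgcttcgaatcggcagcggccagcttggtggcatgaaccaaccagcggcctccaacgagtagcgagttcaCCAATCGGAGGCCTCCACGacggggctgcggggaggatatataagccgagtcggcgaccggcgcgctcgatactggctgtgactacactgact
The letters TTGCATCA, the core of the amino acid response element, were found on either strand in 0.743% of 27457 rat promoters of this length, and in those of Herpud1 and Chac1 among the 19 list members in the table. The ER stress element was in 0.0765% of all promoters and in those of Hspa5 and Xbp1. A second form, ER stress element II, was in 0.0546% and in that of Herpud1. No element overlaps another in these windows. A match describes the letters and does not show binding.

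Herpud1, a component of ER-associated protein degradation, had the largest difference of the 20, with log2 signals of 11.88, 11.24 and 11.12 in MS_A and 13.06, 13.14 and 13.49 in MTXMS_A (1.82 ± 0.50). Chac1, which degrades glutathione, was at 7.88, 8.15 and 6.88 against 9.36, 8.36 and 8.71 (1.17 ± 0.48). Both promoters hold the amino acid response core, and both genes were past the thresholds of the study, as was Phgdh, the first enzyme of serine synthesis, at 10.16, 9.85 and 9.51 against 11.58, 10.55 and 10.60 (1.07 ± 0.30). Chac1 was named after its values were seen, to complete the count. Ddit3, the pro-apoptotic transcription factor CHOP, was at 10.13, 10.07 and 10.73 against 10.84, 11.14 and 11.10 (0.72 ± 0.24). The pseudokinase Trib3, a target of CHOP, was at 8.48, 7.60 and 8.30 against 8.998, 8.69 and 9.05 (0.79 ± 0.28), and 0.52 without MS_A replicate 2. Hspa5, the ER chaperone BiP, was at 13.19, 12.88 and 12.79 against 13.28, 13.39 and 14.09 (0.64 ± 0.32), or 0.39 without MTXMS_A replicate 3, with the nearest arrays of the groups close together. The 14 members that overlapped lay between -0.30 and 0.80. The mean of the list over each array, after subtraction of each gene's mean over the 14 arrays, was 0.30, 0.34 and 0.15 in MTXMS_A and -0.03, -0.07 and -0.14 in MS_A. The other 8 arrays were between -0.14 and -0.01, so that the 3 MTXMS_A arrays were above all 11 others. This list is 1 of 40 written here, chosen with earlier results of these data known. The separation is therefore no independent evidence and was not tested.

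Clock genes had a median of 0.50, with 13 of 19 tested genes above 0. Of the 19, 7 did not overlap and 5 were past an unadjusted p of 0.05, all of them higher. Cry2, a repressor of the clock, was at 9.91, 9.23 and 9.06 in MS_A and at 10.98, 10.42 and 10.53 in MTXMS_A (1.24 ± 0.35). Rora, the nuclear receptor that drives Bmal1, was at 9.74, 9.98 and 8.73 against 10.91, 10.48 and 11.05 (1.33 ± 0.53). The repressor Bhlhe41 had MS_A signals below the array medians, 6.02, 6.18 and 6.41, against 6.64, 7.12 and 9.27 (1.47 ± 0.52). The difference was 0.68 without MTXMS_A replicate 3, where the Bhlhe41 signal was far above its fellows. The kinase Csnk1e was at 0.64 ± 0.26. Without that array the list had a median of 0.36, with 2 genes past p of 0.05. The mean of the list was 0.15 to 0.44 in MTXMS_A and -0.37 to -0.06 in MS_A, against a range of -0.58 to 0.19 in the other groups. The hour of blood sampling is not given in the sources used here, and its part in this result was not tested.

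Splicing factors and hnRNPs, the proteins that bind nascent RNA, were higher in 37 of 51 tested genes, with 19 of 51 above MS_A without overlap and 3 below (median 0.21). Prpf38b, a spliceosome component, was at 10.50, 10.38 and 10.40 in MS_A and at 11.28, 11.18 and 11.13 in MTXMS_A (0.77 ± 0.20). The splicing activator Tra2a was at 11.92, 11.39 and 11.39 against 12.35, 12.31 and 12.42 (0.79 ± 0.31), and Rbm25 gave 0.53 ± 0.21. Ptbp3, a splicing repressor, ran lower (-0.54 ± 0.18), with its other probe set at 0.12. At an unadjusted p of 0.05, 8 of the 51 were higher and 2 lower, and without MTXMS_A replicate 3 these were 2 and 1, with 37 still above 0. The means of the list for MTXMS_A, 0.00 to 0.17, lay within the range of the other 3 groups (-0.51 to 0.27). Cytosolic ribosomal proteins lay slightly higher. Of 41 tested, 39 were above 0 and 8 did not overlap, all higher, none being past an unadjusted p of 0.05. The median was 0.22, and 0.06 after quantile normalization of the arrays. Rps24 had the lowest p, with 0.32 ± 0.20, and Rps15a gave 0.38 ± 0.27.

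**Figure D4:**
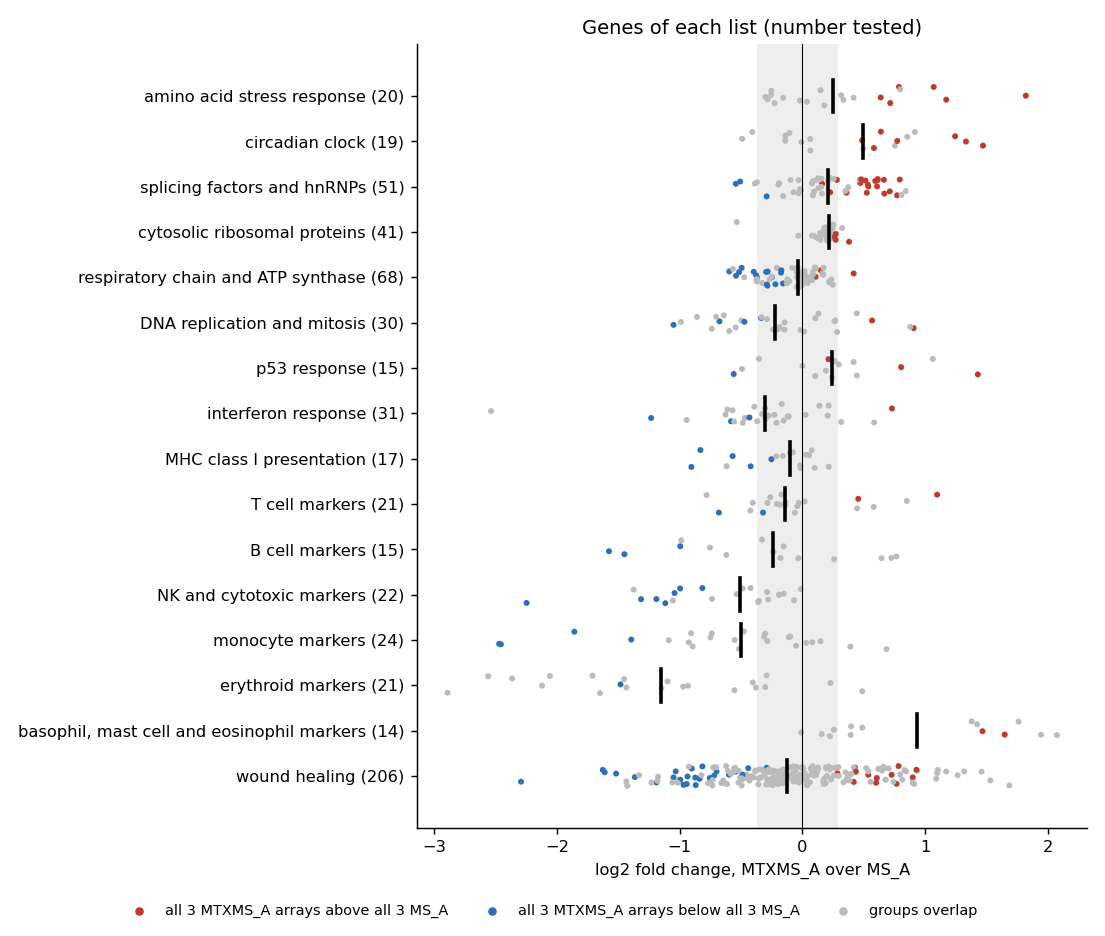
Each point is a tested gene of the list named on the left, with its number of tested genes in parentheses. The horizontal axis is the log2 fold change of MTXMS_A over MS_A, black bars are list medians, red and blue mark genes without overlap and the grey band spans the quartiles of all 10107 genes, -0.36 to 0.28. Grey points are the majority in the NK, monocyte, stress, clock and splicing lists. The coloured points are all blue among NK and monocyte markers, all red among stress and clock genes and mostly red among splicing genes. Blue points are 16.7% of the monocyte list, against 11.8% of all genes.

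Markers of NK and cytotoxic cells were lower throughout: all 22 tested genes of 26 were below 0, with a median of -0.51. Of these, 8 were past an unadjusted p of 0.05, 5 were past the thresholds of the study and 7 did not overlap. Ncr1, the receptor NKp46 that marks NK cells, was at 9.12, 10.18 and 10.27 in MS_A and at 7.43, 7.61 and 7.78 in MTXMS_A (-2.25 ± 0.54). Fcgr3a, the Fc receptor CD16 of NK cells and monocytes, was at 11.82, 12.79 and 12.17 against 10.82, 11.62 and 10.79 (-1.19 ± 0.31). The NK cell receptor gene Klre1 was at 9.79, 11.03 and 10.77 against 9.47, 9.38 and 9.62 (-1.04 ± 0.35). The protease granzyme B (Gzmb), named after its values were seen to complete the 5 with Klrk1, was at 11.12, 12.41 and 12.42 against 10.34, 10.56 and 11.10 (-1.31 ± 0.52), with the lowest MS_A and the highest MTXMS_A array nearly level. MS_A replicate 1 was the lowest of its group for Ncr1, Klre1 and Gzmb. The mean of the list was -0.25, 1.07 and 0.55 in MS_A and -0.01, -0.51 and -0.18 in MTXMS_A, so that the groups overlapped, and NOCIAMS_A was at -0.61 to -0.10. Leaving out MS_A replicate 2, the highest, took the median to -0.13, and leaving out MS_A replicate 1 took it to -0.94. Without MTXMS_A replicate 3, 19 of the 22 were below 0 and the median was -0.64.

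Monocyte markers were lower in 19 of 24 tested genes, with a median of -0.50, 5 past the thresholds of the study and 4 without overlap, all lower. The C-type lectin receptors Clec4a3 and Clec4a1 had the lowest p of the list. Clec4a3 was at 11.62, 12.10 and 12.89 in MS_A and at 8.31, 11.03 and 9.90 in MTXMS_A (-2.46 ± 0.60), and Clec4a1 at 9.36, 9.61 and 10.32 against 7.04, 8.87 and 7.81 (-1.86 ± 0.46). Ccr2, the receptor that draws inflammatory monocytes to tissue, was at 7.90, 8.10 and 9.23 against 4.79, 7.72 and 5.30 (-2.47 ± 0.80). On MTXMS_A replicates 1 and 3 the Ccr2 signal was below the array medians. The receptor for bacterial lipoproteins Tlr2 was at 11.05, 10.97 and 11.35 against 8.80, 9.82 and 10.57 (-1.39 ± 0.45), and -0.93 without MTXMS_A replicate 1. Fcgr1a, the high-affinity IgG receptor, overlapped (-1.09 ± 0.48) and was at -0.51 without that array, and it was named after its values were seen to complete the 5. Cd14 (-0.74 ± 0.69, and -1.40 without MTXMS_A replicate 3) and Cd68 (-0.75 ± 0.45) were within the spread. MTXMS_A replicate 1 had the lowest monocyte mean of the 14 arrays, -0.95, against 0.15 and -0.02 on replicates 2 and 3 and 0.03 to 0.72 in MS_A. The median was between -0.71 and -0.23 when each of the 6 arrays was left out in turn, and -0.70 without MTXMS_A replicate 3.

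**Figure D5:**
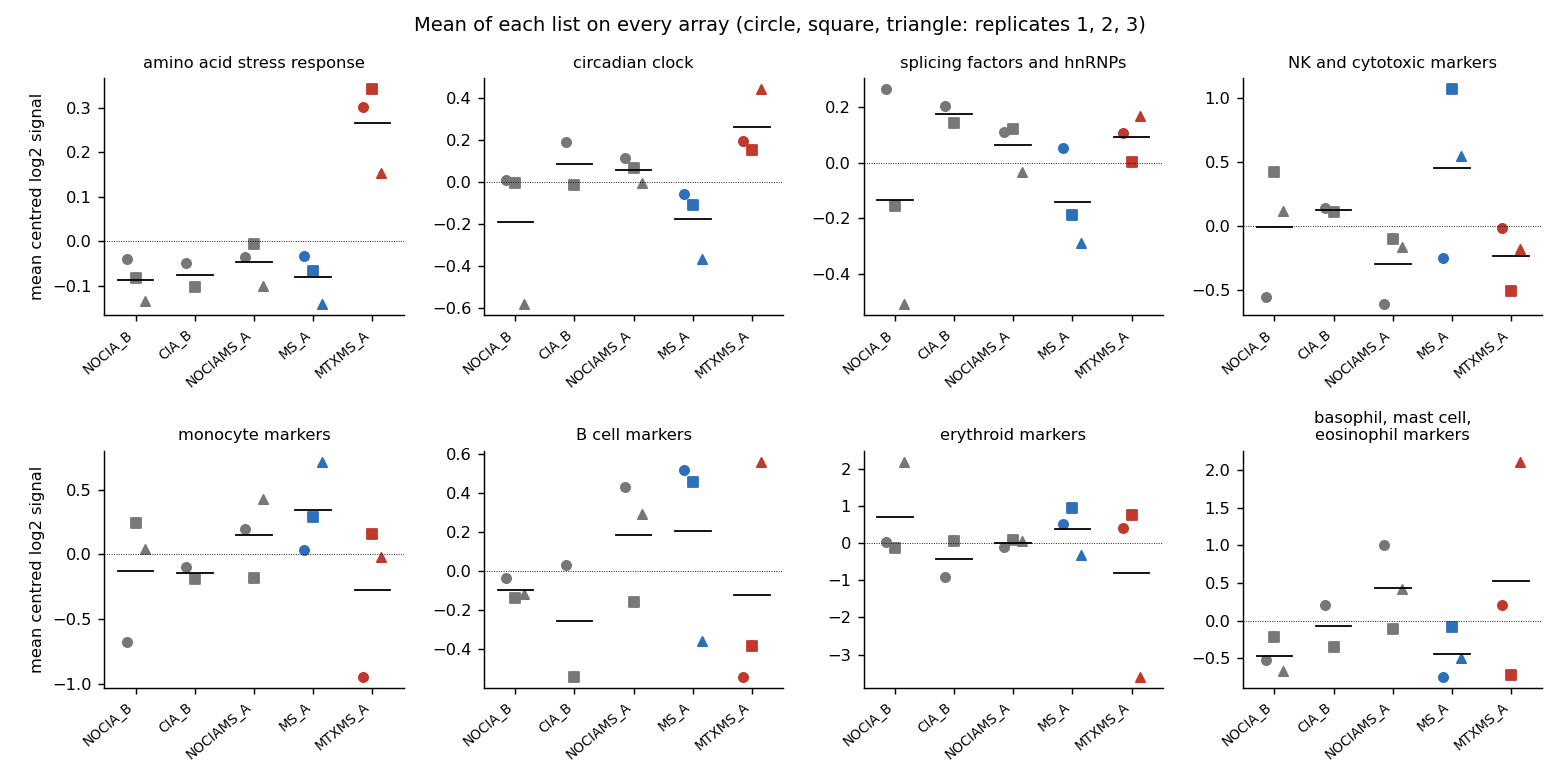
Mean log2 signal of 8 lists on each of the 14 arrays, after subtraction of each gene's mean over the arrays (vertical axis, scale differs between panels). Bars are group means and symbols replicates. The stress list is above all other arrays in MTXMS_A (0.15 to 0.34), and NK and monocyte markers overlap between MTXMS_A and MS_A. MTXMS_A replicate 3 is far off for erythroid (-3.60) and mast cell markers (2.11). The lists were chosen with earlier results of these data known, and no separation was tested.

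B cell markers were below 0 in 11 of 15 tested genes (median -0.24), with 4 past an unadjusted p of 0.05 and 3 without overlap, all lower. Stap1, a signalling adaptor of B cells, was at 8.68, 8.81 and 8.47 in MS_A and at 6.68, 7.58 and 7.34 in MTXMS_A (-1.45 ± 0.24), below all 11 other arrays. Cr2, the complement receptor CD21, was at 10.75, 10.49 and 10.07 against 7.99, 8.93 and 9.66 (-1.58 ± 0.42), and the kinase Btk at 9.57, 9.81 and 10.16 against 8.57, 9.10 and 8.89 (-0.99 ± 0.36). The transcriptional coactivator Pou2af1 (-0.99 ± 0.35) and Ms4a1, which encodes CD20 (-0.75 ± 0.43), overlapped, with MTXMS_A replicate 3 as high as part of MS_A. Ms4a1 was at -1.30 without that array. Without that array 8 of the 15 were past p of 0.05 and the median was -0.99, while without MTXMS_A replicate 1 the median was 0.06.

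T cell markers were below 0 in 15 of 21 tested genes (median -0.14), with 4 without overlap, 2 in each direction. Without MTXMS_A replicate 3, 11 of the 21 were above 0 and the median was 0.06. The kinase of the receptor complex, Lck, was at 13.09, 13.43 and 13.25 in MS_A and at 12.68, 12.76 and 12.28 in MTXMS_A (-0.68 ± 0.23), and the adhesion receptor Cd2 was at -0.32 ± 0.21. Other members were higher. The transcription factor Lef1 was at 12.61, 11.38 and 12.20 against 13.27, 13.04 and 13.17 (1.10 ± 0.41), the cytokine receptor Il7r at 0.46 ± 0.27 and the chromatin organiser Satb1 at 0.85 ± 0.35, which overlapped. The defining chains Cd3e (-0.14 ± 0.21), Cd4 (-0.26 ± 0.70) and Cd8a (-0.14 ± 0.27) differed by less than the spread.

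Erythroid and mast cell markers turned on MTXMS_A replicate 3. Of 21 tested erythroid genes 19 were below 0 with a median of -1.15, but Ahsp, the chaperone of alpha globin, was at 12.66, 13.02 and 10.97 in MS_A and at 11.98, 12.73 and 3.26 in MTXMS_A, so that its low mean came from 1 array. Without that array 16 of 21 were above 0 and the median was 0.38. Cpox, an enzyme of heme synthesis, was the only erythroid gene without overlap (-1.48 ± 0.43). Of 14 tested genes of basophils, mast cells and eosinophils, 13 were above 0 with a median of 0.93, and 0.37 without replicate 3. The mast cell protease Cpa3 was at 7.67, 7.22 and 8.03 against 9.07, 7.21 and 12.87, high on 1 array. The tryptase Tpsb2 (1.65 ± 0.71) and the IgE receptor subunit Ms4a2 (1.47 ± 0.66) did not overlap, and Ms4a2 was at 0.62 without replicate 3. Of 20 tested platelet genes 17 were below 0 (median -0.26, and 0.17 without replicate 3), with the ADP receptor P2ry1 (-1.61 ± 0.51) and Rasgrp3 (-1.11 ± 0.46) without overlap. Of 14 tested neutrophil genes 7 lay on each side of 0. The calprotectin subunits S100a8 (-0.07 ± 0.60) and S100a9 (0.14 ± 0.44) did not differ beyond their spread, and the decoy receptor Il1r2 was at 1.61 ± 0.62, and at 0.77 without MS_A replicate 2. Of markers of epithelium, liver and muscle, 5 of 14, 8 of 17 and 7 of 14 genes on the array passed the filter.

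Inflammatory cytokines and chemokines differed in both directions. Of 23 tested genes, 3 were higher and 2 lower past the thresholds of the study, and the same 5 did not overlap. The median was 0.18, and -0.30 without MTXMS_A replicate 3. Il1rn, the natural antagonist of interleukin 1, was at 9.10, 8.35 and 9.08 in MS_A and at 4.46, 7.77 and 6.30 in MTXMS_A (-2.67 ± 0.69). Nos2, the inducible nitric oxide synthase, was at 6.54, 8.31 and 7.21 against 5.85, 5.05 and 4.29 (-2.29 ± 0.66). The chemokine Ccl3 was at 10.79, 10.83 and 10.33 against 11.28, 11.96 and 11.76 (1.01 ± 0.30), the monocyte attractant Ccl2 at 5.30, 5.90 and 6.98 against 7.96, 8.51 and 11.42 (3.23 ± 1.19), and Il23a, a subunit of interleukin 23, at 1.36 ± 0.44, or 0.87 without MTXMS_A replicate 3. Ccl2 and Nos2 were near or below the array medians in the lower group, and Il1rn was below them on MTXMS_A replicates 1 and 3. Il1b (0.08 ± 0.62) and Il10 (0.80 ± 0.65) overlapped, with -0.48 and 0.12 without MTXMS_A replicate 3, and Tnf and Il6 were below the filter. Of 24 immediate early genes Jun alone did not overlap, and its partner Fos was at -0.17 ± 0.57.

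Among Toll-like receptors and the NF-κB pathway, 13 of 22 tested genes were above 0 (median 0.30). Of the 22, 5 did not overlap (22.7%), near the 23.6% of all genes. The 2 higher were 9.09% and the 3 lower 13.6%, against 11.8% of all genes in each direction. The signalling kinase Irak2 (0.80 ± 0.38, and 0.25 without MTXMS_A replicate 3) and the NF-κB subunit Rela (0.52 ± 0.27) were higher, and 3 receptors of innate recognition were lower, namely Cd180, a Toll-like receptor homologue of B cells and monocytes, at 7.55, 7.69 and 8.38 against 5.06, 5.79 and 5.67 (-2.37 ± 0.49), Tlr2, given above, and Ly86, the partner of Cd180, at -0.999 ± 0.35, or -0.60 without MTXMS_A replicate 1. The Cd180 signals of MTXMS_A were below the array medians. Interferon response genes were below 0 in 24 of 31 (median -0.30), but 2 were past an unadjusted p of 0.05. The antiviral GTPases Mx2 (-1.23 ± 0.46) and Mx1 (-0.58 ± 0.28) and the mitochondrial protein gene Ifi27 (-0.43 ± 0.20) were lower without overlap, and the kinase Eif2ak2, which senses double-stranded RNA, was higher (0.73 ± 0.42). A dimmer probe set of Mx2 gave 0.15. Of 17 tested genes of MHC class I presentation, 5 were lower without overlap and none higher (median -0.10). These were the immunoproteasome subunits Psmb9 (-0.90 ± 0.23), Psmb10 (-0.57 ± 0.18) and Psmb8 (-0.42 ± 0.21), the proteasome activator Psme2 (-0.83 ± 0.23) and the peptide transporter Tap2 (-0.25 ± 0.15). For Psmb9 the signals were 12.27, 12.70 and 12.76 in MS_A and 11.30, 11.75 and 11.96 in MTXMS_A. In MHC class II, 6 of 12 lay on each side of 0 and 4 did not overlap. The protease Ctsl (1.22 ± 0.58, and 0.78 without MTXMS_A replicate 3) and the transcription factor subunit Rfxap (0.52 ± 0.31) were higher, and Ciita, its master regulator, was at 9.67, 9.73 and 9.92 against 8.53, 8.33 and 8.84 (-1.21 ± 0.30), with the peptide loader RT1-DMb at -0.57 ± 0.23. The class II chain genes RT1-Ba and RT1-Db1 were at 0.45 ± 0.56 (-0.0397 without MTXMS_A replicate 3) and 0.34 ± 0.41 (0.0786 without it).

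Proliferation genes were below 0 in 20 of 30 tested (median -0.22, and 0.0073 without MS_A replicate 2). Ccnb1, the mitotic cyclin B1, was at 6.86, 8.58 and 7.44 in MS_A and at 6.53, 6.70 and 6.50 in MTXMS_A (-1.05 ± 0.42). It was below all 11 other arrays, but at -0.57 without MS_A replicate 2, and its MTXMS_A signals were below the medians of their arrays. Stmn1, which destabilises microtubules (-0.68 ± 0.24), and the mitotic kinase Aurkb (-0.70 ± 0.30) were also past a p of 0.05, whereas the replication licensing genes Mcm4 (0.91 ± 0.31) and Mcm2 (0.57 ± 0.25) were higher. Mki67 (-0.19 ± 0.54) and Top2a (-0.02 ± 0.49), usual markers of cycling cells, were within the spread. Among 15 tested genes of the p53 response, 12 were above 0 (median 0.24) and 4 did not overlap. These were Bbc3 (above), the stress sensor Sesn1 (0.80 ± 0.41) and the p53 ligase Mdm2 (0.21 ± 0.21), all higher, and the RNA-binding gene Zmat3, lower (-0.56 ± 0.24). A dimmer probe set of Mdm2 gave -0.29. Cdkn1a, the cell cycle inhibitor p21, was at 0.11 ± 0.25.

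In the apoptosis list, 14 of 23 were below 0 and 4 were lower and 1 higher at an unadjusted p of 0.05. The caspase inhibitor Xiap was at 10.12, 9.80 and 10.07 in MS_A and at 8.68, 9.23 and 9.05 in MTXMS_A (-1.01 ± 0.28), and the apoptosome subunit Apaf1 (-0.66 ± 0.19) and the caspase Casp6 (-0.74 ± 0.26) were lower as well, as was the pro-apoptotic gene Bad (-1.11 ± 0.43), which overlapped. Cflar, an inhibitor of death receptor signalling, gave 1.30 ± 0.45, 0.74 without MTXMS_A replicate 3 and -0.32 on a dimmer probe set. Of 22 genes of the oxidative stress response 17 were below 0, but without MTXMS_A replicate 3 these were 9 and the median turned from -0.22 to 0.08. The quinone reductase Nqo1 was at 9.62, 9.65 and 10.01 against 8.70, 8.76 and 8.46 (-1.12 ± 0.26). The glutathione reductase Gsr gave -0.90 ± 0.38, or -0.47 without replicate 3, and Nfe2l2, the transcription factor that drives Nqo1, gave 1.10 ± 0.46, or 0.72. Of 68 genes of the respiratory chain and ATP synthase, 16 were lower without overlap and 3 higher (median -0.04). The ATP synthase subunit Atp5f1c (-0.54 ± 0.15), the succinate dehydrogenase subunit Sdhb (-0.49 ± 0.17) and the complex I subunits Ndufb5 (-0.40 ± 0.15) and Ndufs1 (-0.60 ± 0.24) had the lowest p. Mitochondrial ribosomal proteins ran both ways, with 39 of 76 above 0, and Mrpl1 (-1.03 ± 0.26) and Mrps31 (1.08 ± 0.38) past the thresholds of the study.

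The study itself compiled lists of wound healing and EMT from published sources and tested them on data that include this series. A direction seen in these lists here is therefore no independent evidence. Of 206 tested genes of its wound healing list, 122 were below 0 (median -0.12), where 53.2% of all genes were. At the thresholds of the study 10 were lower and 2 higher. Without overlap 26 were lower (12.6%) and 13 higher (6.31%), against 11.8% of all genes in each direction. In all, 18.9% of the list did not overlap, against 23.6% of all genes. Without MTXMS_A replicate 3 the thresholds were passed by 13 lower and 3 higher. Members with the lowest p were the histone methyltransferase Ezh2, at 8.74, 9.09 and 8.93 in MS_A and at 7.77, 8.04 and 8.43 in MTXMS_A (-0.84 ± 0.19), Fibp (-0.81 ± 0.20), Fcgr3a, given with the NK markers, and the phosphatase Ptpn6, at 11.33, 11.73 and 12.27 against 9.54, 10.94 and 10.30 (-1.52 ± 0.40). Of these, Fcgr3a is also on the NK marker list, whose means are given above. The part of cell makeup in the wound healing list was not tested. The list of wound-type EMT (EMT.T2) had 32 of 50 below 0 and a median of -0.07, with Zeb1 and the transcription factor Stat3 (0.77 ± 0.24) higher and Il1rn and the morphogen Bmp7 (-0.68 ± 0.24) lower. Of the early lists, the immediate response to mechanical injury (Mec. E.) had 25 tested genes of 68 with a median of 0.11 and 1 gene past the thresholds of the study in each direction, the calcium channel subunit Cacnb1 (1.24 ± 0.45) and the phospholipase Plcb1 (-1.65 ± 0.63). The early phase of healing (Heal E.) had 55 tested genes with a median of -0.10, Nos2 as the only gene past those thresholds, and the kinases Prkcq (0.78 ± 0.23) and Pak1 (-0.97 ± 0.30) next to it. The lists of EMT, inflammation and response to wounding had medians of -0.11, -0.07 and -0.08 over 172, 287 and 395 tested genes, with 4, 11 and 8 higher and 4, 12 and 16 lower at the thresholds of the study.

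The remaining lists had few genes past the thresholds of the study. Median log2 fold changes were 0.24 for T cell activation and regulation (15 tested genes), -0.22 for leukocyte integrins and selectins (20), -0.11 for glycolysis and hypoxia (28), 0.02 for proteasome subunits (34), 0.07 for heat shock proteins and chaperones (32), 0.24 for the glucocorticoid response (14), 0.06 for dendritic cell markers (12) and -0.14 for plasma cell markers (11). At those thresholds 1 gene was higher and 1 lower among integrins and selectins, 2 were higher in the glucocorticoid response (0 without MTXMS_A replicate 3), namely Il1r2 and the metallothionein gene Mt2A, and none in the other 6 lists. Mt2A was at 1.67, and at 0.82 without MTXMS_A replicate 3.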

How the data were processed

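Blood mononuclear cells were measured on 14 one-colour arrays of 5 groups, with 3 arrays each of MTXMS_A and MS_A. The deposited values are MAS5 signal intensity per probe set on a linear scale, which the authors made array by array with the affy package (version not given in the sources used here), scaled to a trimmed mean of 500 with 2% removed at each end. MAS5 values of dim probe sets scatter widely, which inflates their fold changes. The number of arrays limits the precision.

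Here the log2 of the signal was taken without a pseudocount, and probe sets brighter than the median of their array in 2 or more samples were kept, 18515 of 31042. They were fitted with 1 mean per group over all 14 arrays in limma 3.58.1 (R 4.3.3) with empirical Bayes moderation and two-sided tests, adjusted by Benjamini-Hochberg. The code was tested on simulated data. Of all probe sets, 20826 carried 1 gene symbol, 436 several and 9780 none, and only the first were named. Labels name the groups by acupuncture, and their match to the study's codes was read from its methods. Named were the 12 probe sets in each direction described in the text, up to 4 members of each list by lowest p, 37 genes of folate, adenosine, inflammation and cell identity, and members without overlap where their count was 5 or fewer. A few of these genes are not reported here. The members and lists were chosen with earlier results of these data known. The lists number 40 written here and 7 of the study. Alternatives were quantile normalization, a pseudocount of 16, other filters, the 6 arrays alone, no moderation, array weights, a replicate block and leaving out each array. Rats were killed at sampling, so that replicate numbers mark no shared animal. Nothing else is stated on how replicates arose, and p-values measure the spread between these samples. Tables were handled with Python 3.11.15, pandas 2.3.3 and matplotlib 3.10.9.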

Additional observations from a re-analysis of the deposited data

How the results depend on the processing

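The count of probe sets at an adjusted p of 0.05 was 0, against 5 without moderation, 2 with array weights and 0 to 1 when each array was left out in turn. At the thresholds of the study 833 probe sets were counted, 1448 without a filter and 610 to 1294 when each array was left out, the highest without MS_A replicate 1. The count without overlap, 4218, was between 5279 and 6997 when each of the 6 arrays compared was left out, where 2 arrays are set against 3, and 6524 without MTXMS_A replicate 3 and NOCIA_B replicate 3 together, a setting chosen after seeing the data. With the replicate block 0 probe sets passed the adjusted p and 857 the thresholds of the study. Deviations of arrays with the same number correlated at 0.077, 0.158 and 0.246. Those of MTXMS_A replicate 1 and MS_A replicate 2 correlated at 0.187, and the remaining pairs were between -0.255 and -0.0227. The numbers mark no shared animal and were not treated as pairs. What else arrays of the same number may share is not stated in the sources used here.

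Genes far from the threshold changed sign. With array weights Slc19a1 was at -0.0171, Nt5e at -0.17 and S100a8 at 0.23. Without MTXMS_A replicate 3 and NOCIA_B replicate 3 together, Slc19a1 was at -0.000429, Ada at -0.29, Nt5e at -0.33, S100a8 at 0.0384, Il1b at -0.48, Mki67 at 0.0504, Top2a at 0.15, RT1-Ba at -0.0397 and Ahsp at 0.14. With each array left out, the ranges were -0.19 to 0.0781 for Atic, -0.0748 to 0.14 for Slc19a1, -0.29 to 0.30 for Ada, -0.33 to 0.66 for Nt5e, -0.60 to 0.23 for Adora2a, -0.78 to 0.52 for S100a8, -0.26 to 0.48 for S100a9, -0.53 to 0.49 for Il1b, -0.90 to 0.48 for Fos, -0.75 to 0.26 for Cd4, -0.30 to 0.0092 for Cd8a, -0.0347 to 0.25 for Cdkn1a, -0.53 to 0.29 for Mki67, -0.49 to 0.55 for Top2a, -0.0397 to 0.86 for RT1-Ba and -4.595 to 0.14 for Ahsp. The cause was not tested. Of 161 genes followed, 113 were past an unadjusted p of 0.05 in limma, and 62 of them stayed past it in all 23 settings. Many of the 161 were named for their low p, which raises both counts. Of all genes 15% were past that p. Signals below the array medians limit what can be said of folds. Examples are Fpgs, Entpd1 and Bhlhe41 in MS_A and Nos2, Cd180 and Ccnb1 in MTXMS_A. Of 1081 values of list medians under these settings, 30 were counted as having moved, and the median changed sign in at least 1 setting for 19 of the 47 lists, among them B cell, T cell, erythroid, platelet, replication, oxidative stress and cytokine genes. The medians of the NK, monocyte, stress response, clock and splicing lists changed sign in none, which held for most of the 47 lists. Among these were lists with medians near 0, such as proteasome subunits (0.02) and the respiratory chain (-0.04).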
